A study of Mus musculus with 6 samples.

Results

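The 50 genes described here code for proteins of the cell division cycle, and they were followed in the infarcted mouse heart. They are a named list of replication, mitosis and cyclin genes. Salmon's estimated reads were summed over all transcripts of each gene, and all 50 were found among the 35498 genes measured. By role, 16 act at the start of S phase or in DNA replication, 26 act in G2 and mitosis, 6 are D-type cyclins or the cyclin-dependent kinases (CDKs) of G1, and 2 are CDK inhibitors. The C57BL/6J mice were 8 to 10 weeks old, and their hearts were taken 7 days after an infarct was made by tying off the left anterior descending (LAD) artery. RNA was taken from ventricle below the ligature, and poly-A RNA was sequenced. Runx1_FB_KO mice (n = 3) carried Postn CreER+/- and the allele labelled Runx1 fl, and CTL mice (n = 3) carried Postn CreER+/- with wild-type Runx1. Every mouse, CTL included, thus had the tamoxifen-inducible recombinase under the periostin promoter, and every mouse received a tamoxifen diet from surgery until collection. That promoter is active mainly in activated fibroblasts, so the deletion is made in those cells and not in the whole heart. Runx1_FB_KO replicate 1 was male and replicates 2 and 3 were female, while CTL replicate 1 was female and replicates 2 and 3 were male.

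A cell that is to divide first makes D-type cyclins, which bind CDK4 and CDK6 and help to inactivate the retinoblastoma protein RB. E2F factors are then free to switch on the genes of DNA replication. Later, the MuvB complex with B-MYB and FOXM1 switches on the genes of G2 and mitosis. In the heart after infarction, fibroblasts, macrophages and endothelial cells divide during the first week, while adult cardiomyocytes divide rarely. Because these libraries are bulk tissue, fewer cells of a type and less RNA per cell cannot be told apart, nor can fewer dividing cells and less of a transcript in each dividing cell.

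The S phase and the G2 and M genes differ in how often some short sequences occur around their start sites. These shares are counted without any use of expression, but the sequences do not sort every gene into its group. RefSeq promoter windows (GRCm38.p6, 250 bases before to 50 after the start) were available for 39 of the 50 genes, in 43 windows of 300 bases. Both strands were searched for the cell cycle genes homology region (CHR; TTTGAA or TTCGAA), for the CCAAT box (CCAAT) and for E2F cores. The core letters searched were TTCCCGC together with TTCGCGC and also TTGGCGC together with TTGCCGC. The CHR is the element that MuvB binds in G2 and M promoters, the CCAAT box is bound by NF-Y, and E2F cores are typical of replication promoters. In the windows below, every match is in capitals. The windows are on the minus strand of the chromosome and are written 5′ to 3′ in the direction of the gene. Ccnb2 (chr9:70421505-70421804) and Aurka (chr2:172370521-172370820) are the G2 and M genes with the smallest p, and Ccnb1 (chr13:100786437-100786736) codes for the other B-type cyclin. Cenpf (chr1:189688037-189688336) is the G2 and M gene whose expression differed most from the rest. Mcm6 (chr1:128359656-128359955) and Mcm7 (chr5:138171834-138172133) are the S phase genes with the smallest p, and the Mcm7 window is 1 of 2 in the table.
Ccnb2: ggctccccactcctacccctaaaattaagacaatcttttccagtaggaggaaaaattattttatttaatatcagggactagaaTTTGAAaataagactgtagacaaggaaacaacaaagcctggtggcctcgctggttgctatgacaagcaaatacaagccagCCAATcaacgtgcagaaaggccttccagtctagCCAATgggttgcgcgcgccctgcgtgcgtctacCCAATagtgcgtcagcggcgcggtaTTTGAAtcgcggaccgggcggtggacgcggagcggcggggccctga
Aurka: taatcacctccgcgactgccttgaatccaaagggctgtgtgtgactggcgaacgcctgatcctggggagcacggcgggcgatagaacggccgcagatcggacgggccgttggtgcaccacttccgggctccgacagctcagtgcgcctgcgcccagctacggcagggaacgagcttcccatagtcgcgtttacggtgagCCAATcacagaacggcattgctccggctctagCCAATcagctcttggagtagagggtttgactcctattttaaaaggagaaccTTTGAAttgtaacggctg
Ccnb1: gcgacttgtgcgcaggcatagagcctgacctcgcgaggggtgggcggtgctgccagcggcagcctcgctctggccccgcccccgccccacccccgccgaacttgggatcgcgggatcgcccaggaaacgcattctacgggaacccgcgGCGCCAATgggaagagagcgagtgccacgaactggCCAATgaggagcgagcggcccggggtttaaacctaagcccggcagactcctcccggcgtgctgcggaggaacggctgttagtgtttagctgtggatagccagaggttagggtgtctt
Cenpf: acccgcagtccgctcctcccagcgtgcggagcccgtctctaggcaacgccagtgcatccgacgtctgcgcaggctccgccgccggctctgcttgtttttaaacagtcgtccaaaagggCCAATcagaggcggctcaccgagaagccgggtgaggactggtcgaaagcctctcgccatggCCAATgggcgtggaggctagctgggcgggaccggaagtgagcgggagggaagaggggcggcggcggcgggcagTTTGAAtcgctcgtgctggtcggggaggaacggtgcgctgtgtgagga
Mcm6: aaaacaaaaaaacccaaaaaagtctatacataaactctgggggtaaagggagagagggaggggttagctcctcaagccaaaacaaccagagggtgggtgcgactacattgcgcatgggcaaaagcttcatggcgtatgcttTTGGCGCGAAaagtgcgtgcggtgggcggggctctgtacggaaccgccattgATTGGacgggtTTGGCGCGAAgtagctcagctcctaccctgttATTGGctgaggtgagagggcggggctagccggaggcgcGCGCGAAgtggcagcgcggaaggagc
Mcm7: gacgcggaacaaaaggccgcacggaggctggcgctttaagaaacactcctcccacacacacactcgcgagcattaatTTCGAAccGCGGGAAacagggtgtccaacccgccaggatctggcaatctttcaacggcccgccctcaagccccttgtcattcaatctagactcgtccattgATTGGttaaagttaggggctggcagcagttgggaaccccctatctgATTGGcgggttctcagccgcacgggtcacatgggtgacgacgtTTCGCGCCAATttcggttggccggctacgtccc
The Aurka window had its CHR letters 33 bases after the start and CCAAT boxes at -51 and -19, counted to the first base of the match with the start as base 1. The Ccnb2 window had CHR letters at 5 and at -167, and 3 CCAAT boxes. The Cenpf window had CHR letters at 3 and CCAAT boxes at -132 and -71. In the Ccnb1 window no CHR letters were found, and an E2F core on the opposite strand overlapped a CCAAT box. The Mcm6 window held 5 E2F matches, of which the 4 upstream ones form overlapping pairs on opposite strands. In the Mcm7 window the TTCGAA letters read the same on both strands, and E2F cores lay at -165, 18 and 21. The cores at 18 and 21 both overlapped a CCAAT box.

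Over the genes with a window, CHR letters were found in 15 of 20 G2 and M genes (75%) and in 2 of 13 S phase genes (15.4%), against 21.7% of the 27025 genes in the table. E2F cores showed the reverse order, in 3 of 20 G2 and M genes (15%) and 8 of 13 S phase genes (61.5%), against 10.9% of all genes. CCAAT boxes were found in 17 of 20 G2 and M genes (85%) and 8 of 13 S phase genes (61.5%), against 41.1% of all genes. A window with both CHR letters and a CCAAT box was found for 15 of the 20 G2 and M genes, against 8.61% of all genes. Other genes of the same processes had similar shares: CHR letters were in 27 of 36 other mitotic genes (75%), and E2F cores in 17 of 26 other replication genes (65.4%). A match describes the letters only and is not evidence of binding. Genes with and without CHR letters had similar medians, a difference that was not tested. The median log2 fold change of Runx1_FB_KO over CTL was -1.25 for the 15 G2 and M genes with CHR letters and -1.24 for the 5 without them.

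The targeted gene was examined first. Runx1 had 17.5, 10.9 and 67.4 CPM (read counts divided by library size, with TMM scaling) in Runx1_FB_KO replicates 1, 2 and 3, against 96.4, 86.9 and 85.5 CPM in CTL replicates 1, 2 and 3. Every Runx1_FB_KO library was below every CTL library, but replicate 3 was much nearer to CTL than replicates 1 and 2 were. Over all 6 libraries Runx1 had a log2 fold change of -1.48 (SE 0.63), with an edgeR adjusted p of 0.154. Leaving out Runx1_FB_KO replicate 3 gave -2.61 (SE 0.22), with an edgeR adjusted p of 0.000142. The exon removed is not given in the labels, so gene-level counts may include reads from exons that a deletion leaves in place.

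Runx1_FB_KO replicates 1 and 2 stood apart from the other 4 libraries in more than Runx1. Depth was 16598561 to 19987279 estimated reads a library. The share of reads from the mitochondrial genome was 24.5%, 19.6% and 10.4% in the Runx1_FB_KO libraries, against 5.36% to 7.11% in CTL. Against the label of heart tissue, the cardiomyocyte gene Tnnt2 was present in all libraries, at 3675 to 10883 CPM in Runx1_FB_KO and 2511 to 2843 CPM in CTL. The summed level of 18 cardiomyocyte markers was 40789 to 137171 CPM in Runx1_FB_KO and 16125 to 20979 CPM in CTL. With all 6 libraries edgeR's quasi-likelihood test called 0 of 14237 genes at an adjusted p under 0.05 (0%), and DESeq2 called 3018. At an unadjusted p under 0.05, edgeR had 1867 genes lower (13.1%) and 2752 higher (19.3%). The named genes and list counts below are also given without Runx1_FB_KO replicate 3. In its absence 3285 of 14609 genes were lower (22.5%) and 3662 higher (25.1%) at an edgeR adjusted p under 0.05. Leaving out any other single library gave 0 calls by edgeR. The omitted library was the Runx1_FB_KO library nearest to CTL in Runx1, and its values were known. Adjusted p-values of that fit therefore describe Runx1_FB_KO replicates 1 and 2 alone against CTL, and not the genotype as sampled.

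All 50 cell cycle genes passed the filter on low counts. With all 6 libraries, 46 of them had a negative log2 fold change of Runx1_FB_KO over CTL and 4 a positive one, against 54% negative among all genes tested. Their median log2 fold change was -1.12, against -0.06 over all genes tested. None passed at an adjusted p under 0.05 by edgeR (0%), 8 had an unadjusted p under 0.05, and DESeq2 called Ccnb2 and Aurka lower (6.08% of all genes) and Ccnd2 higher (16%). The 7 lower genes at an unadjusted p under 0.05 were Mcm6, Mcm7, Ccnb1, Ccnb2, Aurka, Cdk4 and Cdk6. Those 7 of 50 compare with 13.1% of all genes tested, a share near the background in this fit. With sex as a covariate the number was 29 of 50, against 14.3% of all genes tested. Every Runx1_FB_KO library lay below every CTL library for 7 of the 50 genes, against 18.8% of all genes. That number was 21 without CTL replicate 2, where fewer libraries are compared and the share of all genes was not counted. Without Runx1_FB_KO replicate 1, Runx1_FB_KO replicate 2 or CTL replicate 1, 0 of the 50 genes were lower at an unadjusted p under 0.05. The shares of all genes tested were then 3.89%, 4.99% and 6.77%. Without CTL replicate 3 the number was 2, against 5.43% of all genes tested. Without Runx1_FB_KO replicate 3, 38 of the 50 genes fell and 1, Ccnd2, rose at an edgeR adjusted p under 0.05, against 22.5% lower and 25.1% higher among all genes tested in that fit. Their median log2 fold change was then -2.01, against -0.05 over all genes. Without CTL replicate 1 it was -0.66. Runx1_FB_KO replicate 3 lay inside the CTL range for 40 of the 50 genes, so leaving it out by itself made lower calls more likely. The calls of that fit describe Runx1_FB_KO replicates 1 and 2 against CTL only.

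**Figure D1:**
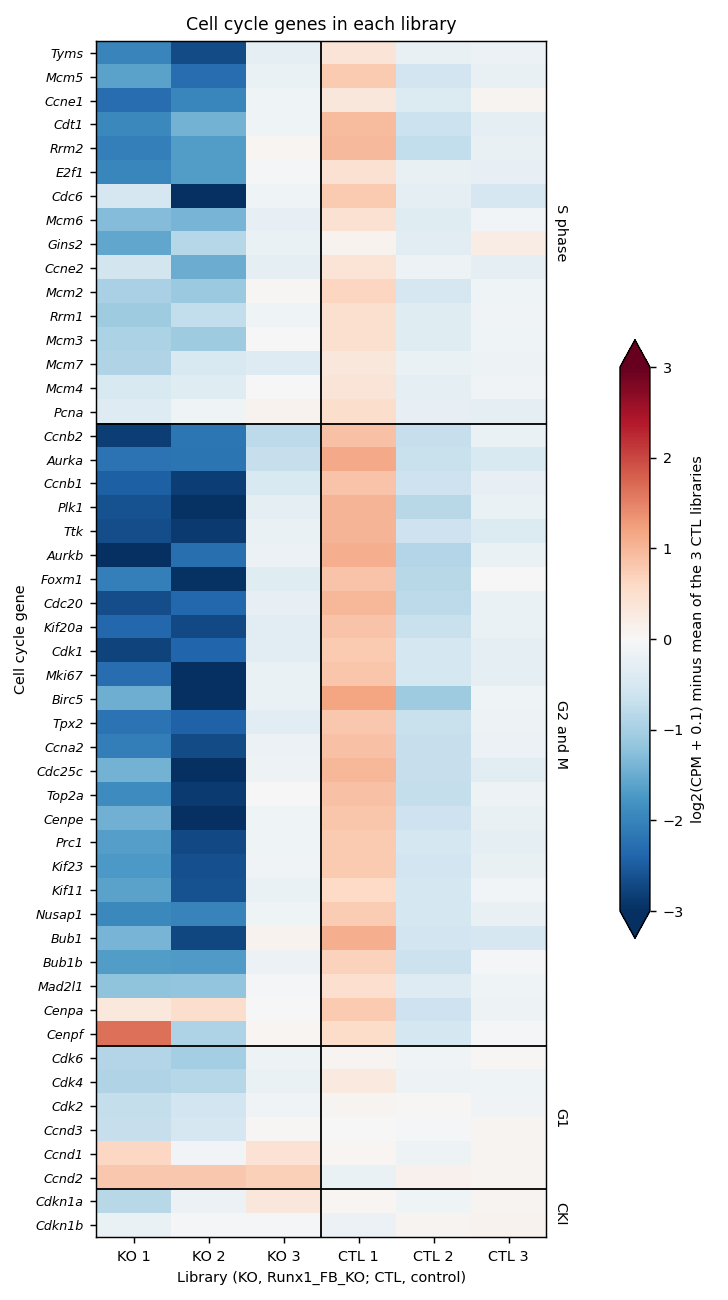
Level of each of the 50 cell cycle genes (rows, grouped by role; CKI, CDK inhibitors) in each library (columns; KO, Runx1_FB_KO), as log2(CPM + 0.1) minus the mean of the 3 CTL libraries, with 6 of the 300 values past the colour limits of -3 and 3. Runx1_FB_KO replicates 1 and 2 were below all CTL libraries for 44 genes, Runx1_FB_KO replicate 3 was inside the span of CTL for 40, and CTL replicate 1 was the highest library for 43. Shares of all genes with these orders were not counted.

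The G2 and M genes had the lowest levels relative to CTL of the role groups. The B-type cyclins form the kinase that drives entry into mitosis, with Cdk1. Ccnb2 (cyclin B2) had 2.16, 3.51 and 9.24 CPM in Runx1_FB_KO replicates 1, 2 and 3, against 29.7, 9.87 and 14.0 CPM in CTL replicates 1, 2 and 3. The groups did not overlap, but Runx1_FB_KO replicate 3 and CTL replicate 2 were separated by under 1 CPM. Ccnb2 had a log2 fold change of -1.83 (SE 0.63, edgeR adjusted p = 0.112), and with Runx1_FB_KO replicate 3 left out it fell by 2.62 (SE 0.53, edgeR adjusted p = 0.00599). A pseudogene copy, Ccnb2-ps, was at a mean of 1.11 CPM, and Salmon can divide reads between the copies. Ccnb1 (cyclin B1) had 3.41, 2.58 and 13.7 CPM in Runx1_FB_KO and 34.2, 12.3 and 16.0 CPM in CTL, so Runx1_FB_KO replicate 3 lay within the CTL range. Cdk1 had 3.27, 4.37 and 18.4 CPM in Runx1_FB_KO and 39.8, 16.0 and 19.2 CPM in CTL, again with Runx1_FB_KO replicate 3 inside the CTL range. Their log2 fold changes were -1.65 (SE 0.70) and -1.51 (SE 0.69), with edgeR adjusted p-values of 0.153 and 0.175. Both fell when Runx1_FB_KO replicate 3 was left out, by 2.75 and 2.67 on the log2 scale (edgeR adjusted p = 0.00342 and 0.00261).

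Aurka codes for Aurora A, the kinase of the spindle poles, and Tpx2 for the spindle protein that activates it. Aurka had 1.77, 1.80 and 5.26 CPM in Runx1_FB_KO and 18.9, 5.36 and 6.27 CPM in CTL. The groups did not overlap, though the highest Runx1_FB_KO and lowest CTL values were nearly equal and CTL replicate 1 was far above the other CTL libraries. Tpx2 had 5.30, 4.53 and 19.9 CPM in Runx1_FB_KO and 43.5, 15.7 and 22.5 CPM in CTL. Foxm1, which codes for a transcription factor that activates G2 and M genes, had 4.91, 2.58 and 16.1 CPM in Runx1_FB_KO and 37.4, 11.6 and 20.5 CPM in CTL. For both, Runx1_FB_KO replicate 3 was within the CTL range, and replicates 1 and 2 were below it. The log2 changes were -1.77 (SE 0.66) for Aurka, -1.45 (SE 0.64) for Tpx2 and -1.55 (SE 0.71) for Foxm1, with edgeR adjusted p-values of 0.126, 0.167 and 0.174. With Runx1_FB_KO replicate 3 left out these genes fell, Aurka by 2.47, Tpx2 by 2.42 and Foxm1 by 2.58 on the log2 scale (edgeR adjusted p = 0.0152, 0.00406 and 0.00708).

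Mki67 and Top2a are the usual markers of cycling cells: Mki67 codes for the Ki-67 protein that coats mitotic chromosomes, and Top2a for the topoisomerase that untangles them. Mki67 had 16.6, 6.95 and 70.4 CPM in Runx1_FB_KO replicates 1, 2 and 3, against 144, 56.4 and 65.8 CPM in CTL. Top2a had 12.5, 6.25 and 46.4 CPM in Runx1_FB_KO, against 85.3, 28.3 and 42.1 CPM in CTL. Both genes were lowest in Runx1_FB_KO replicate 2 and highest in CTL replicate 1, and in Runx1_FB_KO replicate 3 both were above CTL replicates 2 and 3. Neither passed with all 6 libraries (Mki67 -1.49, SE 0.81, edgeR adjusted p = 0.229; Top2a -1.25, SE 0.74, edgeR adjusted p = 0.264). Both fell without Runx1_FB_KO replicate 3, by 2.86 (SE 0.53, edgeR adjusted p = 0.00406) and 2.42 (SE 0.52, edgeR adjusted p = 0.00781) on the log2 scale.

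The remaining G2 and M genes act at the spindle checkpoint (Bub1, Bub1b, Mad2l1, Ttk), at the kinetochore (Cenpe, Cenpf, Cenpa), in the spindle and cytokinesis (Kif11, Kif20a, Kif23, Prc1, Nusap1, Aurkb, Birc5), or in the timing of mitosis (Plk1, Cdc25c, Cdc20, Ccna2). Over all 26 G2 and M genes, 24 had a negative log2 fold change, and the median was -1.42 (range -1.83 to 0.58). Without Runx1_FB_KO replicate 3 the median was -2.42, and 23 of 26 fell at an edgeR adjusted p under 0.05, against 22.5% of all genes tested in that fit. The 3 that did not pass were Cdc25c (-2.42, edgeR adjusted p = 0.0551), Cenpa and Cenpf. Among those that fell, Ttk (-3.10), Plk1 (-3.01) and Aurkb (-2.98) had the most negative values and Mad2l1 (-1.22) the least negative. Plk1, the polo-like kinase of mitotic entry, ran from 1.64 to 11.1 CPM in Runx1_FB_KO and from 7.46 to 27.5 CPM in CTL. Cdc20, which activates the anaphase-promoting complex, ran from 2.62 to 14.4 CPM in Runx1_FB_KO and from 9.91 to 34.2 CPM in CTL. Aurkb and Birc5 code for partners in the chromosomal passenger complex, and their lowest values, 0.92 CPM in Runx1_FB_KO replicate 1 for Aurkb and 1.01 CPM in Runx1_FB_KO replicate 2 for Birc5, were in different libraries. Among the checkpoint genes, Ttk was the scarcest, at 0.55 to 4.03 CPM in Runx1_FB_KO and 2.99 to 9.61 CPM in CTL, and Mad2l1 ran from 5.70 to 12.8 CPM in Runx1_FB_KO and from 10.2 to 19.2 CPM in CTL. The motor genes of cytokinesis, Kif20a and Kif23, were at 2.81 to 15.1 and 2.19 to 13.0 CPM in Runx1_FB_KO, and at 11.7 to 34.1 and 9.42 to 24.3 CPM in CTL. In all of these genes the upper end of the Runx1_FB_KO range was set by replicate 3 and the upper end of the CTL range by replicate 1.

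Cenpf and Cenpa were picked out after their values were seen, as the G2 and M genes with positive log2 fold changes. Cenpf codes for a large kinetochore protein. It had 61.1, 10.2 and 20.4 CPM in Runx1_FB_KO replicates 1, 2 and 3, against 28.7, 13.6 and 18.9 CPM in CTL. Runx1_FB_KO replicate 1 was thus the highest library of all and replicate 2 the lowest, and the log2 fold change turned to -0.41 without Runx1_FB_KO replicate 1. Nearly all of its reads came from 1 coding transcript of 11130 bases. Cenpa codes for the histone H3 variant of centromeres. It had 31.4, 36.1 and 25.3 CPM in Runx1_FB_KO and 43.2, 16.1 and 22.5 CPM in CTL, with every Runx1_FB_KO library inside the CTL range. Its reads were spread over 9 transcripts, several of them annotated as retained introns or nonsense-mediated decay products. The log2 fold changes of Cenpf and Cenpa were 0.58 and 0.18 with all 6 libraries, and 0.85 and 0.35 without Runx1_FB_KO replicate 3, with edgeR adjusted p-values of 0.306 and 0.472 in that fit. The sign of Cenpa turned without CTL replicate 2 (-0.09), with a length offset (-0.12) and with library size as the only scaling (-0.32).

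For 15 of the 16 S phase genes Runx1_FB_KO replicates 1 and 2 were both below all CTL libraries, but by less than for the G2 and M genes. The share of all genes with that order was not counted. All 16 had negative log2 fold changes, with a median of -0.85 (range -1.29 to -0.18). In the fit without Runx1_FB_KO replicate 3, 11 of 16 fell at an edgeR adjusted p under 0.05 (22.5% of all genes tested), and the median was -1.25. Mcm2 to Mcm7 code for the 6 subunits of the replicative helicase. Mcm7 had 13.0, 17.8 and 18.7 CPM in Runx1_FB_KO replicates 1, 2 and 3, against 31.0, 21.2 and 21.8 CPM in CTL. The groups did not overlap for Mcm7, and its log2 change was -0.58 (SE 0.23, edgeR adjusted p = 0.137) with all 6 libraries and -0.64 (SE 0.23, edgeR adjusted p = 0.0558) without Runx1_FB_KO replicate 3. Mcm6 had 17.4, 16.2 and 35.8 CPM in Runx1_FB_KO and 58.7, 33.0 and 40.2 CPM in CTL, and the groups overlapped through Runx1_FB_KO replicate 3. Mcm6 had a log2 fold change of -0.92 (SE 0.36, edgeR adjusted p = 0.139) and fell by 1.35 (SE 0.25, edgeR adjusted p = 0.00406) without that library. Mcm2 had 7.99, 7.26 and 16.3 CPM in Runx1_FB_KO and 24.6, 11.2 and 14.4 CPM in CTL, with the same overlap and a log2 fold change of -0.66 (SE 0.42, edgeR adjusted p = 0.285), and it fell by 1.09 (edgeR adjusted p = 0.0356) without that library. The helicase subunits thus differed among themselves: without Runx1_FB_KO replicate 3 they ran from -0.40 for Mcm4, which did not pass (edgeR adjusted p = 0.19), to -2.00 for Mcm5 (edgeR adjusted p = 0.0107).

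Tyms, the thymidylate synthase that makes the DNA precursor dTMP, had 4.78, 2.89 and 15.9 CPM in Runx1_FB_KO and 25.1, 16.4 and 16.8 CPM in CTL. All Runx1_FB_KO libraries were below all CTL libraries, with replicate 3 close to the lowest CTL value. Its log2 fold change of -1.29 (SE 0.60, edgeR adjusted p = 0.175) was the most negative of the S phase genes, and it fell by 2.29 (edgeR adjusted p = 0.00109) without Runx1_FB_KO replicate 3. Pcna codes for the sliding clamp of DNA polymerase and is widely used as a proliferation marker. It had 40.1, 48.4 and 57.0 CPM in Runx1_FB_KO and 76.3, 44.3 and 43.7 CPM in CTL. Runx1_FB_KO replicates 2 and 3 lay above CTL replicates 2 and 3, and the log2 change was -0.18 (SE 0.26, edgeR adjusted p = 0.649) and turned to 0.14 without CTL replicate 1. Leaving out Runx1_FB_KO replicate 3 gave -0.26 (edgeR adjusted p = 0.437). Pcna thus did not follow Mki67 across these libraries: Runx1_FB_KO replicate 2 had the lowest Mki67 level of the 6 libraries and the third highest Pcna level.

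Gins2, a subunit of the GINS complex that travels with the helicase, had 6.29, 10.4 and 16.4 CPM in Runx1_FB_KO and 20.2, 15.1 and 21.9 CPM in CTL. The groups overlapped, and the log2 change was -0.78 (SE 0.35, edgeR adjusted p = 0.17). With Runx1_FB_KO replicate 3 left out Gins2 fell by 1.16 (edgeR adjusted p = 0.0123). Of its exon bases, 67.3% are shared with Gse1 on the opposite strand, and the labels do not say whether the libraries keep strand, so reads of the 2 genes may not be separated. Salmon gave the coding Gins2 transcript 9.8, 10.8 and 207.6 estimated reads in Runx1_FB_KO replicates 1, 2 and 3, against 347.7, 333.0 and 321.9 in CTL. A retained-intron transcript of 3662 bases took 85.9, 121.9 and 102.8 estimated reads in Runx1_FB_KO and 78.8, 0 and 109.2 in CTL. Runx1_FB_KO replicates 1 and 2 were far below every other library for the coding transcript alone, a contrast that the sum over transcripts shows less of. Smaller overlaps with genes on the opposite strand touch Kif20a (29.3% of exon bases, Cdc23), Ccnd1 (23.4%, LTO1), Cdk4 (19.7%, Tspan31), Ccne2 (17.4%, Ints8), Cdc25c (12.7%), Ccna2 (12.5%), Prc1 (11.1%) and 5 others at smaller shares.

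The other S phase genes license origins (Cdc6, Cdt1), make deoxynucleotides (Rrm1, Rrm2), start S phase as cyclin E (Ccne1, Ccne2) or activate replication genes (E2f1). Without Runx1_FB_KO replicate 3, Ccne1 (-2.21), Rrm2 (-2.02), E2f1 (-1.85), Cdt1 (-1.83) and Rrm1 (-0.91) fell at an edgeR adjusted p under 0.05. Cdc6 (-1.45, edgeR adjusted p = 0.215) and Ccne2 (-0.94, edgeR adjusted p = 0.0949) did not pass. E2f1 ran from 2.55 to 10.1 CPM in Runx1_FB_KO and from 8.60 to 14.2 CPM in CTL, and Ccne1 from 0.92 to 4.44 CPM in Runx1_FB_KO and from 3.62 to 6.18 CPM in CTL. The reductase subunits differed in the width of their ranges: Rrm1 ran from 26.5 to 50.6 CPM in Runx1_FB_KO and from 43.0 to 77.9 CPM in CTL, while Rrm2 ran from 3.73 to 16.4 CPM in Runx1_FB_KO and from 9.38 to 30.7 CPM in CTL. All 4 overlapped between the groups through Runx1_FB_KO replicate 3.

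**Figure D2:**
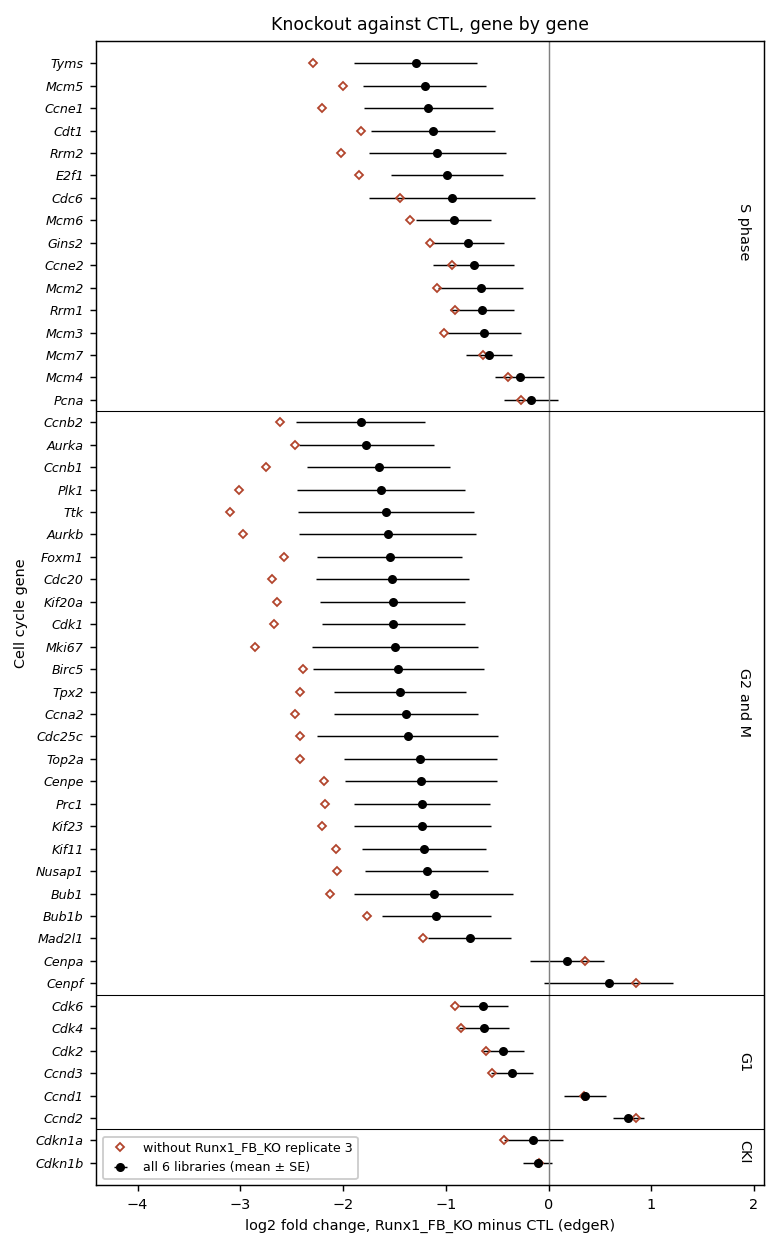
Log2 fold change of Runx1_FB_KO over CTL (x axis) for each cell cycle gene (rows, grouped by role; CKI, CDK inhibitors). Filled points with bars show the edgeR estimate ± SE with all 6 libraries and open diamonds the estimate without Runx1_FB_KO replicate 3; the G2 and M median was -1.42 and -2.42 in these fits, and the S phase median -0.85 and -1.25.

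The G2 and M genes thus differed from CTL by more than the S phase genes, with medians that were 0.56 apart on the log2 scale with all 6 libraries and 1.17 apart without Runx1_FB_KO replicate 3. They were 0.31 apart without Runx1_FB_KO replicate 2 and 0.35 apart without CTL replicate 1, where the G2 and M median was -0.81 and the S phase median -0.46. The same gap can be read in each library from the mean log2 CPM of a role group minus its CTL mean. This score, taken over the 26 G2 and M genes, gave -1.84, -2.44 and -0.22 for Runx1_FB_KO replicates 1, 2 and 3, against 0.86, -0.65 and -0.21 for CTL. For the 16 S phase genes it was -1.28, -1.42 and -0.12 in Runx1_FB_KO, against 0.53, -0.37 and -0.17 in CTL. The S phase score minus the G2 and M score was 0.56, 1.02 and 0.10 in Runx1_FB_KO and -0.33, 0.29 and 0.05 in CTL. The balance of the 2 groups also moved among the CTL libraries, and Runx1_FB_KO replicate 3 lay inside the CTL range, so replicates 1 and 2 alone carried the difference between genotypes. In CTL replicate 1, where both scores were highest, the G2 and M genes again stood further from the other libraries. The median ratio of CTL replicate 1 to the mean of CTL replicates 2 and 3 was 2.39 for G2 and M genes and 1.64 for S phase genes. The median ratio of Runx1_FB_KO replicate 3 to the mean of Runx1_FB_KO replicates 1 and 2 was 4.14 for G2 and M genes and 2.14 for S phase genes. The G2 and M genes therefore had the wider spread within each genotype as well as between them. No test was made of these scores, which rest on genes that share libraries.

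The G1 genes did not share a direction. Ccnd2 (cyclin D2) had 140, 140 and 131 CPM in Runx1_FB_KO replicates 1, 2 and 3, against 69.6, 86.8 and 83.6 CPM in CTL. All Runx1_FB_KO libraries were above all CTL libraries, including replicate 3, and among the 50 genes this was the only one so ordered, against 20.2% of all genes tested. Its log2 change was 0.78 (SE 0.16, edgeR adjusted p = 0.0682), the smallest p of the 50 genes, and it rose by 0.85 (SE 0.14, edgeR adjusted p = 0.0022) when Runx1_FB_KO replicate 3 was left out. The separation of Ccnd2 depended on the scale. In TPM, which corrects for transcript length within a fixed total, it had 18.5, 19.1 and 31.3 in Runx1_FB_KO. CTL had 18.8, 24.1 and 23.4 TPM, so the groups overlapped. Mitochondrially encoded transcripts take a larger part of that total in Runx1_FB_KO. Ccnd1 (cyclin D1) had 73.7, 45.7 and 65.3 CPM in Runx1_FB_KO and 50.3, 43.1 and 51.3 CPM in CTL. The groups overlapped through Runx1_FB_KO replicate 2, and the log2 change was 0.35 (SE 0.20, edgeR adjusted p = 0.251), with a negative sign (-0.10) when library size was the only scaling. Leaving out Runx1_FB_KO replicate 3 gave 0.35 (edgeR adjusted p = 0.204). Ccnd3 (cyclin D3) had 46.0, 51.9 and 75.2 CPM in Runx1_FB_KO and 73.2, 71.1 and 77.8 CPM in CTL. It was low in Runx1_FB_KO replicates 1 and 2 only, with a log2 fold change of -0.36 (SE 0.21, edgeR adjusted p = 0.25) and it fell by 0.56 (SE 0.13, edgeR adjusted p = 0.00953) once Runx1_FB_KO replicate 3 was left out.

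The kinases that bind these cyclins had lower means in Runx1_FB_KO. Cdk4 had 54.1, 56.2 and 87.4 CPM in Runx1_FB_KO and 124, 90.8 and 91.7 CPM in CTL. Cdk6 had 33.1, 30.2 and 54.8 CPM in Runx1_FB_KO and 64.4, 56.9 and 62.3 CPM in CTL. Neither gene's groups overlapped, and in both Runx1_FB_KO replicate 3 was close to the lowest CTL library. Their log2 fold changes were -0.63 and -0.64 (SE 0.24 each), with edgeR adjusted p-values of 0.134 and 0.132, and without Runx1_FB_KO replicate 3 they fell by 0.85 and 0.91 (edgeR adjusted p = 0.00587 and 0.00108). Cdk2, which acts with cyclins E and A, had 14.8, 16.5 and 22.8 CPM in Runx1_FB_KO and 25.8, 24.9 and 22.7 CPM in CTL. Runx1_FB_KO replicate 3 and CTL replicate 3 were equal to within 0.1 CPM, and the log2 change was -0.44 (SE 0.20, edgeR adjusted p = 0.174). Leaving out Runx1_FB_KO replicate 3, Cdk2 fell by 0.60 (edgeR adjusted p = 0.0121). The 6 G1 genes had a median of -0.40.

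The CDK inhibitors did not separate the groups. Cdkn1a (p21), which p53 activates, had 35.4, 55.7 and 80.4 CPM in Runx1_FB_KO and 65.5, 57.5 and 67.3 CPM in CTL. Runx1_FB_KO replicates 1 and 2 lay below the CTL range and replicate 3 above it, and the log2 change was -0.15 (SE 0.29, edgeR adjusted p = 0.726), turning to 0.10 without Runx1_FB_KO replicate 1. Leaving out Runx1_FB_KO replicate 3 gave -0.44 for Cdkn1a (edgeR adjusted p = 0.117). Cdkn1b (p27) had 56.3, 61.6 and 62.0 CPM in Runx1_FB_KO and 56.8, 68.2 and 68.7 CPM in CTL, a narrow range in which the groups overlapped. Its log2 change was -0.11 (SE 0.14, edgeR adjusted p = 0.607), and -0.09 without Runx1_FB_KO replicate 3 (edgeR adjusted p = 0.625).

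**Figure D3:**
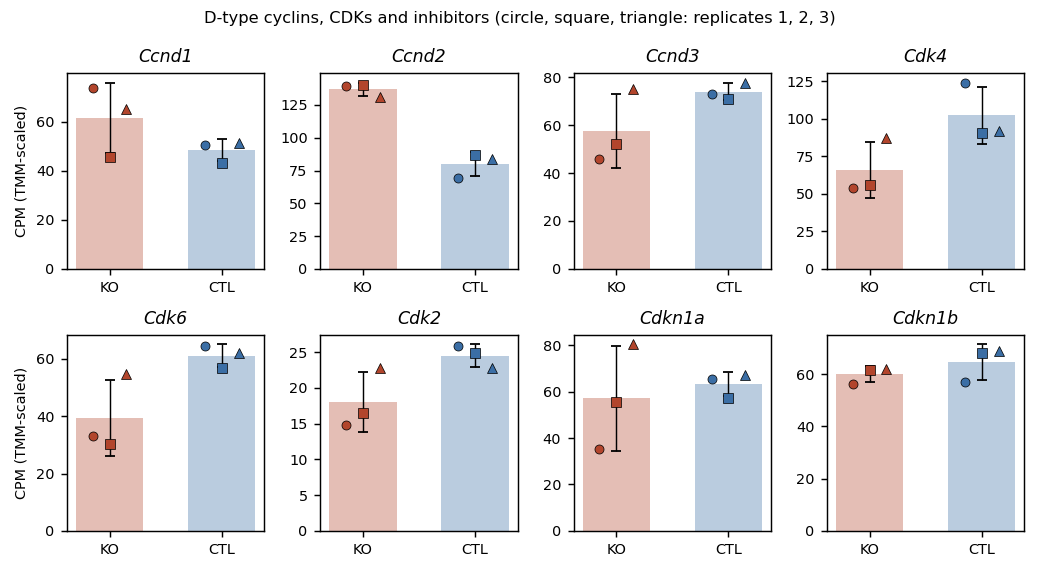
CPM (y axis) of the D-type cyclins, their kinases and the CDK inhibitors in Runx1_FB_KO (KO, left) and CTL (right); bars and error bars are means ± SD (n = 3 each) and points are libraries. Ccnd2 averaged 137 CPM in Runx1_FB_KO and 80.0 CPM in CTL with no overlap, and Cdk4 averaged 65.9 CPM in Runx1_FB_KO and 102 CPM in CTL.

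Levels of different genes were compared on the TPM scale, which corrects for transcript length, within CTL. Cdk4 was the highest at 121 ± 24.4 TPM, followed by Ccnd3 at 84.0 ± 4.70, Pcna at 72.2 ± 25.1, Cdkn1a at 66.6 ± 4.92 and Cenpa at 51.3 ± 20.4 TPM (SD, n = 3). The last 4 of these overlap within their SDs in neighbouring pairs. Cdk1 was at 41.5 ± 18.7 TPM, and Mki67, a long transcript, at 14.2 ± 7.52 TPM. Among the 5 highest levels, 3 were thus of G1 or inhibitor genes. Except for Ccnd2 above, the TPM values of Runx1_FB_KO were not set against these, since mitochondrially encoded transcripts take a larger part of the fixed total there.

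The order of libraries was shared by most of the 50 genes. CTL replicate 1 was the highest library for 43 of them, including 25 of the 26 G2 and M genes and 15 of the 16 S phase genes. Runx1_FB_KO replicate 2 was the lowest for 27 and replicate 1 for 20. Runx1_FB_KO replicates 1 and 2 were both below all CTL libraries for 44 genes, and Runx1_FB_KO replicate 3 was above both of them for 46. For 40 genes Runx1_FB_KO replicate 3 was inside the range of the CTL libraries, including 24 of the 26 G2 and M genes. The shares of all genes tested with these library orders were not counted. Among females both Runx1_FB_KO libraries were below CTL replicate 1 for 45 genes, and among males Runx1_FB_KO replicate 1 was below both CTL libraries for 46. CTL replicate 1 was the only female CTL library and the highest library for 43 genes, so the count among females largely repeats its high level. The shares of all genes with these orders were not counted either. The difference in response between males and females was tested as an interaction in edgeR, which called 0 genes at an adjusted p under 0.05 and 276 at an unadjusted p under 0.05. Cenpf, the only 1 of the 50 genes with such a value, had an edgeR unadjusted p of 0.0102 and an adjusted p of 1. In that design 2 of the 4 combinations of sex and genotype held 1 library.

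Markers of several cell types that divide after infarction were also low in Runx1_FB_KO replicates 1 and 2. The 11 macrophage markers summed to 1500, 1473 and 3839 CPM in Runx1_FB_KO replicates 1, 2 and 3, against 6118, 3770 and 4103 CPM in CTL. The 5 pan-leukocyte markers summed to 180, 163 and 479 CPM in Runx1_FB_KO and 731, 497 and 564 CPM in CTL. The 12 activated fibroblast markers summed to 10783, 9233 and 36210 CPM in Runx1_FB_KO and 42475, 44169 and 41838 CPM in CTL. CTL replicate 1 was the highest library for the macrophage and pan-leukocyte lists, as it was for the cell cycle genes, but not for the fibroblast list. All 11 macrophage, 5 pan-leukocyte and 12 fibroblast markers had negative log2 fold changes, with medians of -0.99, -1.21 and -1.25. The 8 endothelial markers did not show this order, with sums of 1021 to 1097 CPM in Runx1_FB_KO and 908 to 1021 CPM in CTL and 6 negative log2 fold changes (median -0.07). Kdr had the most positive change of these (1.41) and added to the Runx1_FB_KO sums. It had 226, 210 and 124 CPM in Runx1_FB_KO and 77.3, 77.1 and 56.3 CPM in CTL. The most negative change was that of Cldn5 (-0.50). The 7 tested T and NK cell markers were low, with sums of 5.6 to 8.9 CPM in Runx1_FB_KO and 15.4 to 24.5 CPM in CTL. The 7 B and plasma cell markers summed to 11.9 to 37.9 CPM in Runx1_FB_KO and 11.7 to 194 CPM in CTL, and most of the sum was Jchain, a gene of plasma cells. The 5 tested neutrophil markers summed to 7.6 to 24.5 CPM in Runx1_FB_KO and 26.9 to 52.2 CPM in CTL, and the 5 tested erythroid markers to 535 to 3788 CPM in Runx1_FB_KO and 809 to 4457 CPM in CTL. The T cell gene Cd3e was close to 0, at 0.08 to 0.46 CPM in Runx1_FB_KO and 0.45 to 1.61 CPM in CTL.

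The cell cycle scores were also set against those of these markers, library by library. The G2 and M score minus the macrophage score was -0.34, -0.90 and 0.05 in Runx1_FB_KO and 0.52, -0.39 and -0.13 in CTL, so only Runx1_FB_KO replicate 2 was below the CTL range. Against the pan-leukocyte score it was -0.05, -0.71 and 0.07 in Runx1_FB_KO and 0.51, -0.43 and -0.08 in CTL, with replicate 2 again below the CTL range. The G2 and M score minus the activated fibroblast score was 0.25, -0.17 and -0.02 in Runx1_FB_KO and 0.91, -0.73 and -0.18 in CTL, with all Runx1_FB_KO libraries inside the CTL range. The S phase score minus the macrophage score was 0.23, 0.12 and 0.15 in Runx1_FB_KO and 0.19, -0.10 and -0.09 in CTL, and Runx1_FB_KO replicate 1 was above the CTL range. The part of cell type content in the levels of the cell cycle genes was not tested.

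**Figure D4:**
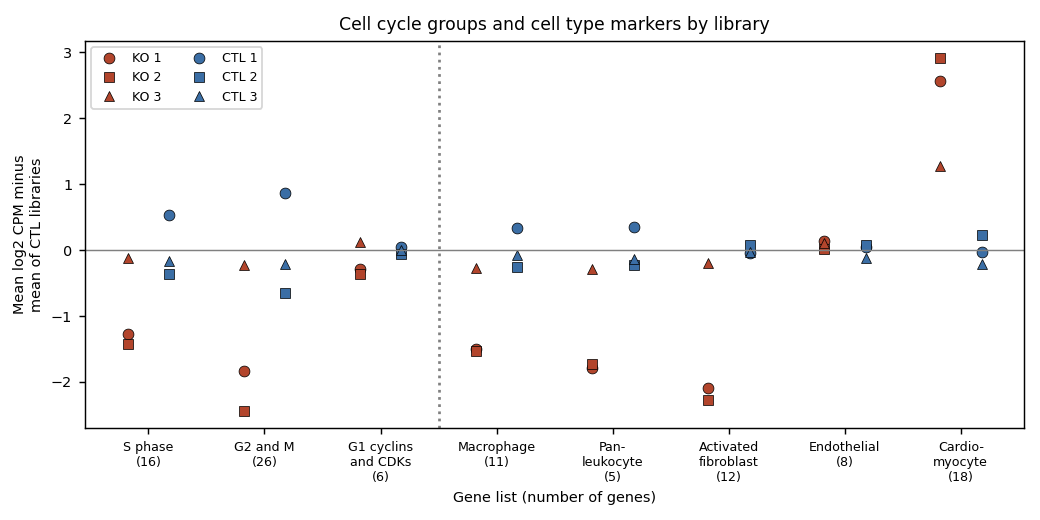
Mean log2 CPM minus the CTL mean (y axis) for 3 role groups of cell cycle genes (left of the dotted line) and for cell type marker lists (right of it), with 1 point per library (KO, Runx1_FB_KO). For G2 and M the points of Runx1_FB_KO replicates 1, 2 and 3 lie at -1.84, -2.44 and -0.22, and in the macrophage, pan-leukocyte and fibroblast lists replicates 1 and 2 also lie far below replicate 3, while the cardiomyocyte list was higher in all 3 Runx1_FB_KO libraries.

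Other genes of the same processes were examined as lists. Of 32 other replication genes, 30 had negative log2 fold changes, with a median of -0.49. For 3 of them, Rfc2 (-0.48), Chaf1b (-1.73) and Mcm10 (-1.64), every Runx1_FB_KO library was below every CTL library (18.8% of all genes), and 0 passed by edgeR over all genes, although 5 had an unadjusted p under 0.05 (13.1% of all genes lower) and DESeq2 called 2 (6.08%), both shares near the background. Rfc2 codes for a subunit of the loader of PCNA, Chaf1b for a subunit of a histone chaperone that follows the fork, and Mcm10 for an origin-firing factor. In the fit without Runx1_FB_KO replicate 3, 13 of the 32 fell (22.5% of all genes tested). Of 41 other mitotic genes, 40 had negative log2 fold changes, with a median of -1.29, and without Runx1_FB_KO replicate 3, 35 fell (22.5% of all genes tested) and 1 rose (25.1%). The medians of these lists thus lay in the same order as those of the 2 role groups.

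The mitotic gene that rose without Runx1_FB_KO replicate 3 was Pttg1, which codes for securin, the inhibitor of separase. Pttg1 had 60.1, 78.7 and 23.4 CPM in Runx1_FB_KO replicates 1, 2 and 3, against 17.7, 19.6 and 18.2 CPM in CTL. All Runx1_FB_KO libraries were above all CTL libraries, and the log2 change was 1.55 (SE 0.41, edgeR adjusted p = 0.0769) with all 6 and 1.95 (edgeR adjusted p = 0.000103) without Runx1_FB_KO replicate 3. The other 2 mitotic genes with the smallest p were Tacc3 (-1.53, edgeR adjusted p = 0.128), a spindle protein, and Hjurp (-0.66, edgeR adjusted p = 0.138), the chaperone of the CENP-A histone. Of 5 other CDK inhibitors, all had negative log2 fold changes, and the 3 with the smallest p were Cdkn2c (p18; -0.57, edgeR adjusted p = 0.167), Cdkn2b (p15; -1.35, edgeR adjusted p = 0.189) and Cdkn2a (p16 and p19ARF; -1.48, edgeR adjusted p = 0.227).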

How the data were processed

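The authors deposited 1 Salmon table per library, which lists estimated counts, TPM, length and effective length of 116546 transcripts. Salmon 1.5.2, DESeq2 1.44.0 and the mm10 (GRCm38) build are named in the submitters' processing notes; the annotation release is not given in the sources used here. TPM, as the authors deposited it, has a fixed sum per library. It served to order genes within CTL and was set between the groups for Ccnd2 alone. Libraries were made from poly-T selected RNA and random hexamer primers, per the labels' protocols, which do not state strand.

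Transcripts were matched to genes by identifier (GRCm38 annotation). The 569 unmatched ones, 0.0777% to 0.102% of reads, were dropped. Gene sums of the deposited estimated counts were rounded, filtered with filterByExpr (14237 genes left), scaled by TMM (factors 0.732 to 1.21) and tested for genotype with edgeR 4.0.16 quasi-likelihood F tests in R 4.3.3, with Benjamini-Hochberg adjustment over all genes and a threshold of 0.05. The SE was taken as the size of the log2 fold change over the root of F. Scores used log2 CPM with a prior count of 2. Estimated counts limit precision for low genes such as Cdc6 and Cdc25c, which had under 6.5 CPM in every library.

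The 50 genes, the other lists and the tests were chosen with earlier results of these data known. Values in every library are given for the genes with the smallest p in each role group (6 for G2 and M, 4 for S phase), all G1 genes and inhibitors, and Mki67, Top2a, Pcna and Mcm2. In the other lists the 3 genes with the smallest p are named. The labels do not say how each replicate was drawn beyond sex, so p-values measure the spread between these samples.

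Each fit was repeated with sex or the replicate number added to the model, with RLE, upper quartile and library size scaling, without a filter, with a minimum of 1 CPM in 3 libraries, with a length offset, with omission of mitochondrial and cardiomyocyte genes, in DESeq2 1.42.0 and limma-voom 3.58.1, at a threshold of 0.1, and with each library left out in turn. The test was checked on simulated counts for Runx1_FB_KO against CTL in which 200 genes were changed. With the spread of all 6 libraries (14032 genes), 1% of the changes of 1 (log2) and 60.2% of the changes of 2 were recovered. Without Runx1_FB_KO replicate 3 (14115 genes), the shares were 44% and 78.8%. Each gene was drawn independently, so shifts that many genes share within a library were not simulated. The shares recovered in these libraries may therefore differ.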

Additional observations from a re-analysis of the deposited data

How the results depend on the processing

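Directions were stable for most genes: 50 of the 50 kept their sign and their side of the threshold with sex as a covariate, with the replicate number as a block, with RLE or upper quartile factors, with the CPM filter, in limma-voom and without mitochondrial and cardiomyocyte genes. Signs turned for Cenpa (-0.318) and Ccnd1 (-0.098) with library size alone, under which the median of all genes was -0.519 in place of -0.062, and for Cenpa with the length offset (-0.119). With each library left out in turn, the values of the genes whose sign turned ran from -0.408 (without Runx1_FB_KO replicate 1) to 0.998 for Cenpf, -0.437 to 0.105 (without Runx1_FB_KO replicate 1) for Cdkn1a, -0.314 to 0.143 (without CTL replicate 1) for Pcna and -0.088 (without CTL replicate 2) to 0.68 for Cenpa. The G1 median was -0.813 with library size alone, where 4204 genes were lower at an unadjusted p under 0.05. The causes were not tested.

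Calls depended on the test. The 0 genes called by edgeR became 889 without a filter, 3018 in DESeq2 and 2311 at a threshold of 0.1, and the cell cycle genes called became 1, 3 and 1. Of the cell cycle genes, 7 were lower at an unadjusted p under 0.05, against 13.1% of all genes tested. That number was 29 with sex as a covariate (14.3% of all genes) and 24 with the replicate block (14.5%). It was 13 without a filter (10.5%), 12 with the length offset (12.2%), 15 in DESeq2 (15.6%) and 12 in limma-voom (15.8%). The replicate block called 0 genes, and same-numbered libraries deviated from their group means with correlations of -0.0507, 0.1131 and 0.0807 across genes, so the numbers were not taken to pair the samples.

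Leaving out each library in turn gave 0 to 6947 genes called and 568 to 3892 lower at an unadjusted p under 0.05. Among the cell cycle genes, 0 to 39 were called and 0 to 40 were lower at an unadjusted p under 0.05. From 7 to 44 of them were lower without overlap, and the share of all genes without overlap was not counted in these fits. Medians ran from -2.007 to -0.664 for the 50 genes, -1.251 to -0.462 for S phase, -2.42 to -0.811 for G2 and M and -0.58 to -0.264 for G1, and the gap between S phase and G2 and M from 0.313 to 1.169. The extremes on the side of more calls came without Runx1_FB_KO replicate 3.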

Other observations

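Regulators above these genes were examined as a list. Of 18 genes of the RB, E2F and DREAM group, 12 had negative and 6 positive log2 fold changes of Runx1_FB_KO over CTL (median -0.15), and without Runx1_FB_KO replicate 3, 5 fell and 5 rose at an edgeR adjusted p under 0.05, shares near those of all genes tested (22.5% lower and 25.1% higher). The 3 with the smallest p were all higher. E2f6, which codes for a repressor of the E2F family, had 101, 98.2 and 43.6 CPM in Runx1_FB_KO replicates 1, 2 and 3, against 29.3, 32.4 and 29.4 CPM in CTL (log2 fold change 1.42, SE 0.32, edgeR adjusted p = 0.0682). Tfdp2, the partner of E2F proteins on DNA, had 144, 204 and 68.2 CPM in Runx1_FB_KO, against 50.9, 65.9 and 57.0 CPM in CTL (1.26, edgeR adjusted p = 0.0921). Lin52, a subunit of MuvB, had 15.6, 20.1 and 9.70 CPM in Runx1_FB_KO, against 6.22, 8.35 and 7.46 CPM in CTL (1.04, edgeR adjusted p = 0.0873). In each of these 3 genes all Runx1_FB_KO libraries were above all CTL libraries (20.2% of all genes tested), and Runx1_FB_KO replicate 3 was the nearest to CTL. The cardiomyocyte marker list was also highest in Runx1_FB_KO replicates 1 and 2 and nearest to CTL in replicate 3, and its part in these values was not tested.

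The p53 targets beside Cdkn1a were mixed as well, with 8 negative and 6 positive log2 fold changes among 14. At an edgeR unadjusted p under 0.05, 4 were lower (13.1% of all genes tested) and 3 higher (19.3%). Without Runx1_FB_KO replicate 3, 7 fell (22.5% of all genes tested) and 3 rose (25.1%) at an edgeR adjusted p under 0.05. Ccng1 (cyclin G1) had 1037, 925 and 455 CPM in Runx1_FB_KO, against 229, 301 and 230 CPM in CTL (1.67, SE 0.35, edgeR adjusted p = 0.0682). Sesn1 had 199, 291 and 89.5 CPM in Runx1_FB_KO, against 70.9, 94.4 and 83.9 CPM in CTL, and overlapped through Runx1_FB_KO replicate 3 (1.22, edgeR adjusted p = 0.107). Bbc3, which codes for the death protein PUMA, had 4.52, 3.98 and 6.99 CPM in Runx1_FB_KO, against 11.1, 7.99 and 10.8 CPM in CTL (-0.94, edgeR adjusted p = 0.0965). Cdkn1a itself, at 0.726, was far from the threshold.

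Runx1_FB_KO replicates 1 and 2 differed in some cell cycle genes. Replicate 1 exceeded replicate 2 by a ratio of 11.7 for Cdc6, 7.13 for Cdc25c, 5.97 for Cenpf and 4.0 for Birc5. Cdc6 and Cdc25c rest on 0.16 CPM in replicate 2, which leaves their ratios imprecise, while Cenpf rests on 933 and 131 estimated reads in replicates 1 and 2.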
